A study of Homo sapiens with 7 samples.

Results

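The regions described here are transcript start sites that gave no nascent RNA signal in wild-type cells. They were chosen from 9123 windows present in the tables of all 3 wild-type (WT) and all 3 CFAP20-knockout (CFAP20KO) libraries. A window was kept when every 200-bp bin in the first 3 kb after its start was at 0 in each of the 3 WT libraries. This held for 3065 of the 9123 windows (33.6%). Of these silent windows, 43 carried signal in all 3 CFAP20KO libraries, and 28 of the 43 also carried signal in the rescue library. Both counts depend on single libraries: they were 68 and 51 without WT replicate 2, and 97 and 47 without CFAP20KO replicate 1.

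The cells were RPE1, an immortalised human line derived from retinal pigment epithelium. All groups share the background that the labels call RPE1 iCas9 p53/puro-dKO. The WT group (3 libraries) has no further change, the CFAP20KO group (3 libraries) lacks CFAP20, and the rescue (1 library) is the knockout expressing CFAP20-GFP. Cells were labelled with 2 mM bromouridine for 30 min, and the labelled RNA was captured with an antibody and sequenced (BrU-seq). The labels do not say how many knockout clones were used or whether replicates were separate cultures, so spreads and p-values may be technical. The rescue has no replicate.

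BrU-seq reads RNA made during the pulse, so signal rises at a start site in use and runs through introns into the gene body, whatever the stability of the finished transcript. Many annotated starts are unused in any one cell type, since they belong to genes of other tissues or are alternative starts of genes read from elsewhere. A start held silent often lies in closed chromatin or carries a methylated promoter, and such states are copied through cell division. CFAP20 is a conserved protein of the cilium axoneme. A silent window is a silent start and not a silent gene, because another start of the same gene may be in use.

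Signal is coverage on the transcribed strand, scaled per library by the authors, and values below are the mean of the 15 bins of the first 3 kb. Every value was a whole multiple of 1 step per library, and this step falls as depth rises. It was 0.3, 0.0733 and 0.187 in WT replicates 1 to 3, 0.393, 0.16 and 0.18 in CFAP20KO replicates 1 to 3, and 0.1 in the rescue. Summed over all bins, the libraries held from 30181881 steps in CFAP20KO replicate 1 to 116884911 steps in WT replicate 2. A window at 0 in a shallow library can therefore hold signal under 1 step. The share of the 9123 windows at 0 was 41.9% ± 2.74 (SD, n = 3) in WT and 43.0% ± 2.62 (SD, n = 3) in CFAP20KO. This difference of 1.19 percentage points was within the spread (two-sided exact permutation test, p = 0.7, smallest possible 0.1). Column names of a deposited splice table place WT and CFAP20KO replicate 1 in one run, WT replicate 2 with the rescue in another, and WT replicate 3 with CFAP20KO replicates 2 and 3 in the third. What this run number stands for is not stated.

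The deposited tables name windows by transcript identifiers without gene names or positions. Windows were therefore placed on hg38 by matching the shape of their signal to windows around replication origins, whose centres the authors listed with coordinates. Of the windows outside the silent group, 1184 could be placed by a direct match, and 95.9% of these places lay within 300 bp of an annotated start on the same strand. When the same places were moved by 5 or 20 kb, the share was 2.11% to 2.96%. Among silent windows, 240 could be placed and 229 of them (95.4%) lay at an annotated start. Some names came through origins outside that list, whose centres are known only to about 13 kb. This route searched for an annotated start, so lying at a start does not check it. Tried on 150 directly placed windows outside the silent group, it placed 20, all 20 at the same place. That trial held no silent window. The route gave SERPING1, MEOX1, CLEC4F, DUSP26, DPEP2, LINC01563, PICSAR, ENSG00000239628 and LINC02017. Their correlations with extreme values clipped ran from 0.519 (DUSP26) to 0.993 (CLEC4F), with 0.5 as the lowest allowed. A gene name below thus rests on a match of signal shape and not on the identifier.

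Promoter sequence is shown for the 3 placed windows with knockout signal that had an entry in the promoter table, because the strongest of them differs in base content from most silent starts. The stretches run from 250 bases before to 50 bases after the RefSeq start (GRCh38.p14), 5′ to 3′ on the gene's strand, with each CG dinucleotide in capitals. They are ZSCAN18 on the minus strand at chr19:58098182-58098481, CLEC4F on the minus strand at chr2:70820550-70820849 and LINC01563 on the plus strand at chr17:21075306-21075605.
ZSCAN18: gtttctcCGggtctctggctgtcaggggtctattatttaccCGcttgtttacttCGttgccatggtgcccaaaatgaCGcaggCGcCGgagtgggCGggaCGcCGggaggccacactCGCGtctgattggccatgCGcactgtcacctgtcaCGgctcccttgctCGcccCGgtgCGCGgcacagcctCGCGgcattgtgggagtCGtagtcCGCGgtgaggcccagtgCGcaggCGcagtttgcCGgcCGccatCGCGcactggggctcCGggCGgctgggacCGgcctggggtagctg
CLEC4F: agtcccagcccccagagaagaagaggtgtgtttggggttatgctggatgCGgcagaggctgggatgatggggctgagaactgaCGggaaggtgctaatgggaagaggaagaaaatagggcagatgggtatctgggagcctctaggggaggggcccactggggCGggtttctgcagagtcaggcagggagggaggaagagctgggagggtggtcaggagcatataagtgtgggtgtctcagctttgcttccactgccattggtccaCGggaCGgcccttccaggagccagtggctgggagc
LINC01563: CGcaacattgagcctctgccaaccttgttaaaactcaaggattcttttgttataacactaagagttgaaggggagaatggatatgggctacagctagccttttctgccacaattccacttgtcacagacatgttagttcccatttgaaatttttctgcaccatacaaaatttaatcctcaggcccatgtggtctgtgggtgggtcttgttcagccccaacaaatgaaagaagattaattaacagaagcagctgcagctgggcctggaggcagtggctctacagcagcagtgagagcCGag
The ZSCAN18 promoter holds 31 CG dinucleotides, more than 79.3% of the 35116 promoters in the table. CLEC4F has 5 and LINC01563 has 2. Stretches dense in CG dinucleotides are called CpG islands, and their methylation is known to accompany silencing. Methylation was not measured in these data.

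Over all placed silent windows with an entry in the promoter table (117 of 229), the median was 4 CG dinucleotides in 300 bases (interquartile range 3 to 11), and 23.1% held 15 or more. Placed windows outside the silent group (773 of 1136 with an entry) had a median of 25 (14 to 34), and 74.6% held 15 or more. All promoters of the table had a median of 14 (4 to 28). Silent starts were thus mostly poor in CG, and ZSCAN18 lies in their upper part. The letters TATAAA, searched on both strands, occurred in 22 of the 117 silent promoters (18.8%), in 57 of the 773 others (7.37%) and in 11.5% of all promoters. None of the 3 printed stretches holds them. These shares describe the windows that could be placed, which need signal within 100 kb, and were not tested.

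**Figure D1:**
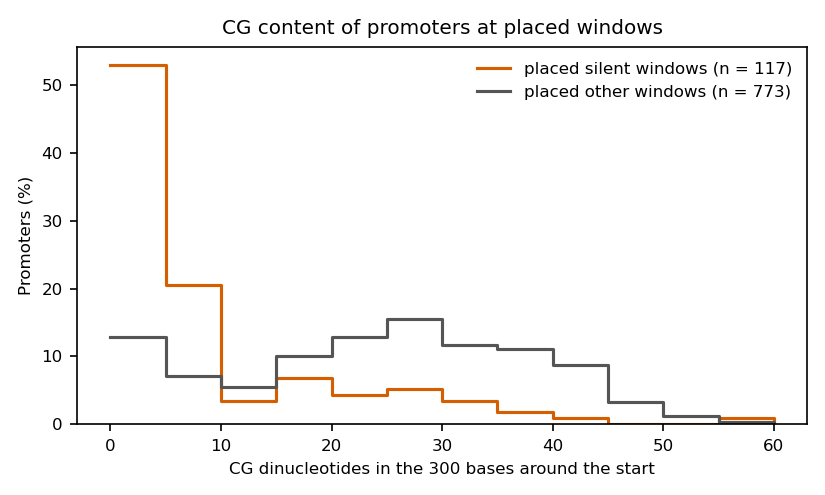
Share of promoters (vertical axis, %) by the number of CG dinucleotides in the 300 bases around the RefSeq start (horizontal axis, steps of 5), for 117 placed silent windows and 773 placed other windows. Most silent windows lie below 10 CG dinucleotides, around their median of 4, and the others spread around a median of 25.

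Protein-coding genes made up 138 of the 229 placed silent windows (60.3%) and long noncoding RNAs 88 (38.4%). Long noncoding RNAs were 207 of the 1136 other placed windows (18.2%). Genes named from this set were picked after their values were seen, as examples of genes of other tissues. They do not stand for the whole set, which also holds starts placed at TNRC6A, CHID1, DCN and FBLN2. The picked genes include C1QA, C1QB and C1QC on chromosome 1, which encode the chains of complement C1q made by macrophages. NR1I3, a nuclear receptor of liver, lies on the same chromosome. Others are SLC26A3, the chloride transporter of colon on chromosome 7, PGC, the stomach pepsinogen on chromosome 6, and IL22, a cytokine of lymphocytes on chromosome 12. All of these were at 0 in the 3 WT libraries by the rule. From the gene families listed for this report, silent starts were ZNF501 (1 of 28 placed windows with a ZNF symbol), KRT24 (1 of 1 keratin window) and IL22 and IL1RL2 (2 of 12 immune windows). ZSCAN18, also silent, has no ZNF symbol and is not in that count. Over all 1365 placed windows 16.8% were silent. None of 5 cilium windows and none of 7 neuronal windows was silent, and no olfactory receptor, HOX or protocadherin window could be placed.

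Presence in the splice table served to check the cell type, since its values need spliced reads. Of 5 genes of cultured epithelial and mesenchymal cells, 4 were present (KRT8, KRT18, VIM and FN1, but not COL1A1). From 7 pigment epithelium genes only OTX2 was present, and RPE65, RLBP1, BEST1, TYR, PMEL and MITF were absent. None of 3 blood genes (PTPRC, CD74, LAPTM5) and none of 3 neuronal genes (MAP2, SYT1, STMN2) was listed. CFAP20 is also absent from this table and could not be placed among the windows, so the knockout itself was not checked here.

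Signal near silent starts was common. Within the 3 kb before the start, 596 of the 3065 windows held signal in at least 1 WT library, and 1717 did so from 3 to 20 kb after it. Only 10 windows were at 0 in all 3 WT libraries over the whole window, 100 kb to each side. The silent window with the strongest WT signal just before its start was placed at ORM1, the gene of the acute-phase plasma protein orosomucoid (chromosome 9, start 114323098, plus strand). Its 3 kb before the start held 8.24, 0.948 and 3.24 in WT, 12.8, 5.25 and 3.95 in CFAP20KO and 0.84 in the rescue. At the start itself only CFAP20KO replicate 2 was above 0, at 0.032. WT and CFAP20KO overlapped before the ORM1 start, and the lowest value was that of the rescue.

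Among silent windows with strong signal further on, one was placed at DPEP2, a membrane dipeptidase gene (chromosome 16, start 67999484, minus strand). From 3 to 20 kb it held 35.3, 4.93 and 20.1 in WT, 27.9, 10.4 and 9.77 in CFAP20KO and 8.41 in the rescue, and its first 3 kb stayed at 0 in all 7 libraries. The groups overlapped there. By the mean of the 3 WT libraries, the highest level of this stretch was at uc010vuy.2, with 37.0, 32.5 and 37.3 in WT, 32.2, 32.7 and 31.5 in CFAP20KO and 30.3 in the rescue.

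Most silent windows stayed silent in the knockout. In 2580 of the 3065 (84.2%) all 3 CFAP20KO libraries were at 0 as well, in 350 (11.4%) 1 library had signal, in 92 of them 2 had it, and in 43 (1.40%) all 3 had it. Across all 9123 windows, the 3 CFAP20KO values all lay above the 3 WT values in 3.70%. The WT zeros chose the members, so their count is given as a description and was not tested. In the opposite direction, 47 of the 3220 windows silent in CFAP20KO (1.46%) had signal in all 3 WT libraries, against 4.65% of all 9123 windows with each CFAP20KO value below each WT value. In these bulk samples, fewer cells reading a start and less RNA per cell cannot be told apart. Leaving out 1 library moved the counts apart in either direction. Windows with knockout signal alone and with WT signal alone numbered 51 and 110 without WT replicate 1, 68 and 73 without WT replicate 2, and 61 and 99 without WT replicate 3. They numbered 97 and 66 without CFAP20KO replicate 1, 59 and 77 without replicate 2, and 65 and 73 without replicate 3. By the shape of their signal, at least 3 of the 43 gained windows overlap, with uc060wmy.1 lying 43.2 kb from uc060wmv.1 and 116 kb from uc060wmt.1, so the 43 windows represent at most 41 loci.

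Single-library signal in silent windows followed depth. It was present in 150 windows (4.89%) in CFAP20KO replicate 1, in 263 (8.58%) in replicate 2, in 250 (8.16%) in replicate 3 and in 330 of 3059 (10.8%) in the rescue. For comparison, windows at 0 in only 2 WT libraries were read in the third. WT replicate 1 then had signal in 4.70% of 3216 windows, replicate 2 in 12.7% of 3511 and replicate 3 in 7.65% of 3319. The 3 deepest libraries, WT replicate 2, the rescue and CFAP20KO replicate 2, had the 3 highest shares.

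The median of that signal, where above 0, was lower in deeper libraries within each genotype. It was 0.0787, 0.032 and 0.036 in CFAP20KO replicates 1 to 3 and 0.0233 in the rescue. In the left-out WT replicates 1 to 3 it was 0.04, 0.0147 and 0.0373. The highest values did not follow depth. The highest value in the left-out WT library was 0.14, 0.205 and 0.348 for replicates 1 to 3, and only 1 window in all (in replicate 3) reached 0.3. In the silent windows the highest value was 9.26, 3.45 and 2.75 in CFAP20KO replicates 1 to 3 and 4.44 in the rescue. Values of at least 0.3 occurred in 12, 8 and 8 windows in the 3 CFAP20KO libraries and in 13 in the rescue. The deepest library, WT replicate 2, thus had the largest share of windows with signal and no window above 0.205. The reverse reading gave the same picture. A CFAP20KO library read in windows at 0 in the other 2 reached at most 0.315, 0.128 and 0.276 for replicates 1 to 3. WT replicates 1 to 3 read in windows silent in CFAP20KO reached 7.26, 3.10 and 15.1, with 7, 6 and 5 windows of at least 0.3. Values of at least 0.3 were thus seen mostly across genotypes, in both directions. The sets differ, since windows were at 0 in 2 libraries for a reading within a genotype and in 3 for a reading across. Zeros in one genotype chose the windows, and runs are not evenly shared between genotypes. What sets these levels was not tested.

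**Figure D2:**
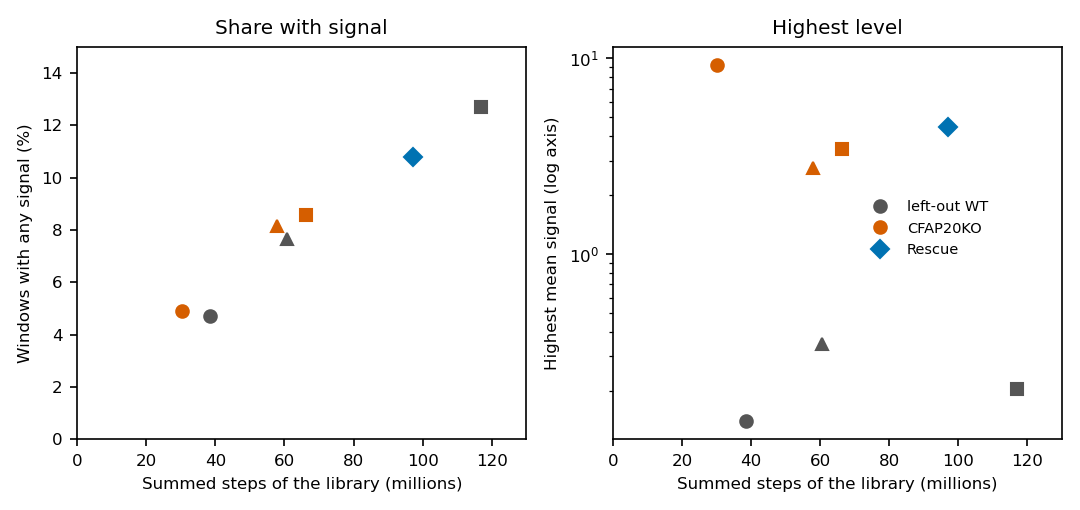
Share of windows with any signal (left, %) and highest mean signal over the first 3 kb (right, log axis) against the summed steps of the library on a linear axis. Grey points are WT libraries read in windows at 0 in the other 2, orange points CFAP20KO and the blue diamond the rescue in windows at 0 in all 3, with circle, square and triangle for replicates 1 to 3. The share rises with depth among the WT and among the CFAP20KO libraries, and the rescue is a single point. The highest level is 2.75 or more in the knockout and rescue libraries and 0.348 or less in WT.

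Just outside the rule lay 105 windows with a single bin of 1 step in a single WT library. In 63 of them all 3 CFAP20KO libraries were at 0, and in 4 (3.81%) all 3 had signal. Just inside, the smallest gained signal was 0.012 in its lowest CFAP20KO library, which is 1 bin of 1 step. Of the 43 gained windows, 8 had a single bin above 0 in some CFAP20KO library, and 9 had at least 5 bins in each. CFAP20KO replicate 1, the shallowest library with the largest step, was the highest of the 3 in 28 of the 43. Its part in their levels was not tested.

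A small group of 8 windows stood above the others, with at least 0.3 in each CFAP20KO library. This level was set after the values were seen. The other 35 had means over the CFAP20KO libraries from 0.0239 to 0.337, with a median of 0.0637. Of the 47 windows that lost signal, 3 reached 0.3 in each WT library. A level of 1 was reached by 2 windows of each kind.

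**Figure D3:**
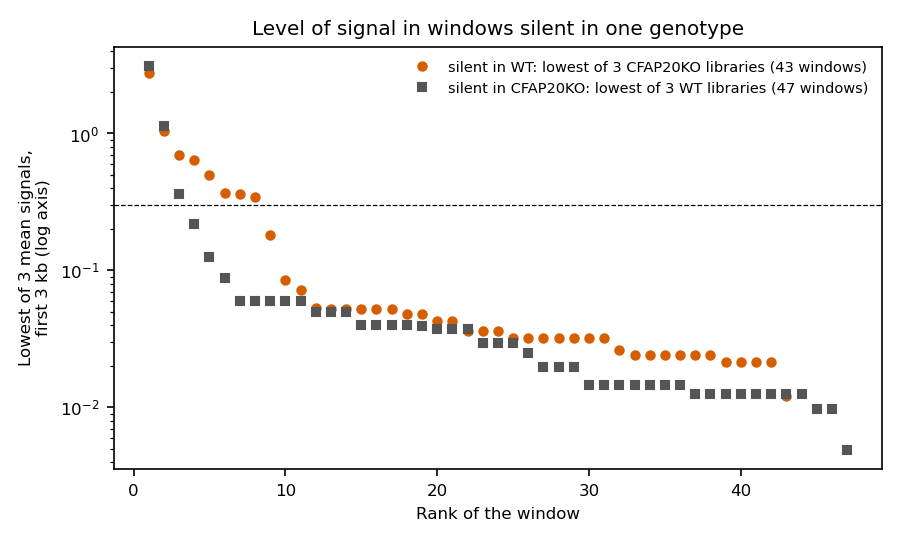
Lowest of the 3 mean signals over the first 3 kb (log axis) against the rank of the window, for the 43 windows silent in WT with signal in all 3 CFAP20KO libraries and the 47 windows silent in CFAP20KO with signal in all 3 WT libraries. The dashed line is at 0.3, with 8 windows of the first kind and 3 of the second above it.

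The strongest gained window was that of ZSCAN18 (uc002qrh.3), a zinc finger and SCAN domain gene of the large cluster on chromosome 19. Its start was placed 2 bp from an annotated ZSCAN18 start at position 58098203, with the CG-rich promoter printed above. The 3 WT libraries were at 0, the CFAP20KO replicates were at 9.26, 3.45 and 2.75 (mean 5.15 ± 3.57, SD, n = 3), and the rescue was at 4.44. All 15 bins were above 0 in each knockout library and in the rescue. All 6 libraries were at 0 in the 3 kb before the start, and the rescue was at 0.0133. From 3 to 20 kb the WT libraries held 0, 0 and 0.0022, the knockout 3.17, 1.18 and 1.04 and the rescue 2.04. The rescue thus lay inside the range of the knockout in both stretches, and no WT library came near it.

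Signal at uc060wmy.1 was 1.36, 1.03 and 1.06 in CFAP20KO (mean 1.15 ± 0.184, SD, n = 3) and 0.107 in the rescue. It did not begin at the start, since the 3 kb before it already held 1.42, 1.31 and 1.20 in the knockout. The rescue value was 9.26% of the knockout mean, which was the lowest share among the 8 windows. The overlapping windows uc060wmt.1 and uc060wmv.1 were much lower at their own starts, where the rescue was at 0.

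At uc002nor.3 the CFAP20KO values were 1.28, 0.768 and 0.696, and the rescue was higher at 2.05. Nothing was read in the 3 kb before the start in any of the 7 libraries. From 3 to 20 kb the knockout held 0.074, 0.107 and 0.131 and the rescue 0.532, with WT at 0. Within the first 20 kb the knockout signal was thus highest at the start. Further on, from 20 to 100 kb, the knockout held 0.368, 0.375 and 0.38 and the rescue 0.633. WT held 0.138, 0.066 and 0.39 there.

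The next window, uc002xwy.4, was the most even among the knockout libraries, with 0.708, 0.64 and 0.72, and the rescue was at 0.593. All 7 libraries were at 0 in the 3 kb before it. Downstream, from 3 to 20 kb, the knockout held 0.273, 0.299 and 0.354 and the rescue 0.249, against at most 0.00863 in WT. Knockout and rescue were close there, and WT was far below both.

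In uc062wxe.1 the rescue exceeded every knockout library. CFAP20KO held 0.498, 0.555 and 0.612 and the rescue 3.51. Signal also lay before the start, at 0, 0.533 and 0.492 in the knockout and 2.84 in the rescue, so the start sits inside a longer stretch of signal.

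The remaining windows of this group were uc060wew.1, uc062bfn.1 and uc059qzm.1. In uc060wew.1 the knockout held 0.367, 0.928 and 0.732 and the rescue 0.267. In uc062bfn.1 the values were 0.524, 0.363 and 0.432 with 0.667 in the rescue. For uc059qzm.1 they were 0.341, 0.885 and 0.696 with 0.36 in the rescue, and this was the only one of the 8 with WT at 0 over the whole 200 kb. CFAP20KO replicates 2 and 3, which share a run, were above replicate 1 in uc060wew.1 and uc059qzm.1 and below it in uc062bfn.1.

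**Figure D4:**
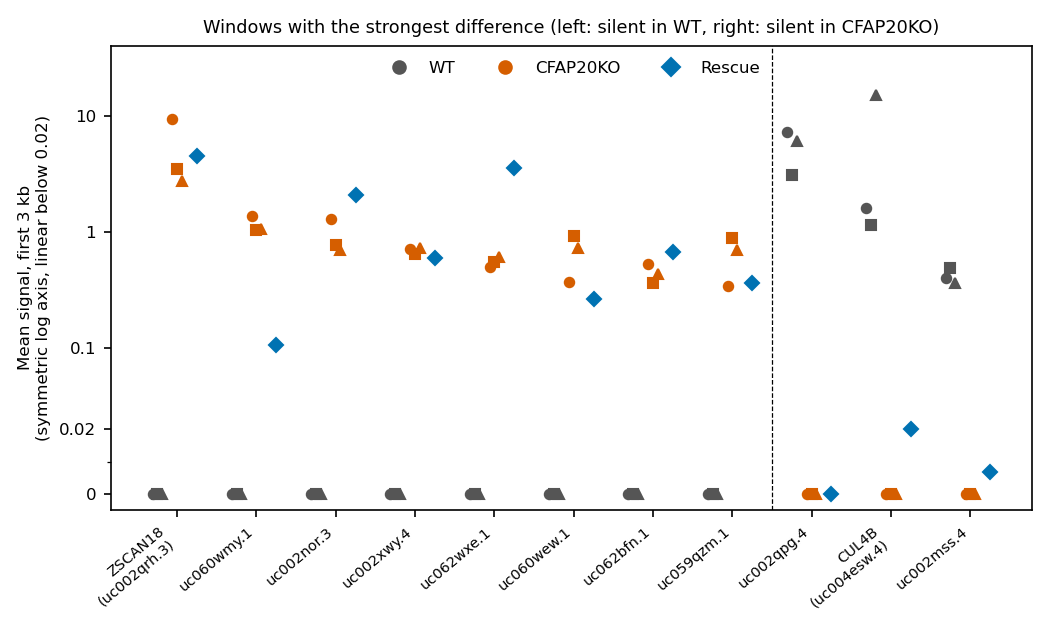
Mean signal over the first 3 kb (symmetric log axis, linear below 0.02) in each library for the 8 windows silent in WT (left of the dashed line) and the 3 windows silent in CFAP20KO (right) that reached 0.3 in every library of the other genotype. Circle, square and triangle are replicates 1 to 3 and diamonds the rescue, which is above 0.1 in all 8 windows on the left and at or below 0.02 in all 3 on the right.

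Shapes around the starts differed within the group. In 5 of the 8 windows, all 3 knockout libraries were at 0 in the 3 kb before the start. In uc059qzm.1 only replicate 3 had signal there, at 0.012, and in uc060wmy.1 and uc062wxe.1 signal began upstream. All 8 had each knockout library above each WT library from 3 to 20 kb, and 5 of 8 did so from 20 to 100 kb. Each of the 8 thus had reading past its first 3 kb in the knockout.

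**Figure D5:**
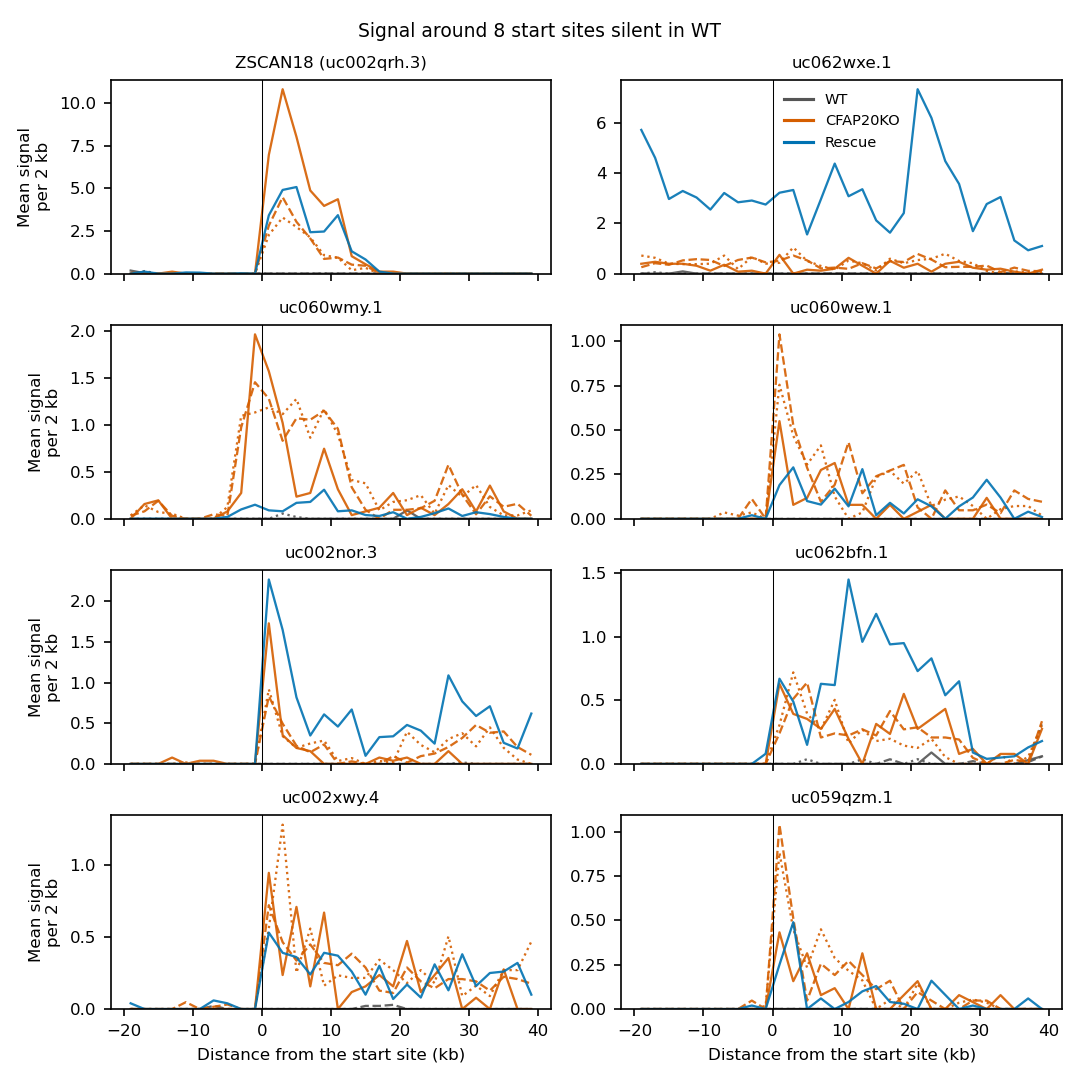
Mean signal per 2 kb (vertical axis, scaled coverage) from 20 kb before to 40 kb after the start (horizontal axis) for the 8 windows, with WT in grey, CFAP20KO in orange and the rescue in blue, and solid, dashed and dotted lines for replicates 1 to 3. In 6 panels knockout signal begins at the start, in uc060wmy.1 it begins before it, in uc062wxe.1 it extends to both sides of it, and WT stays at or close to 0 in all.

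Signal from 3 to 20 kb was not used to choose silent windows, but it belongs to the same contrast and is described without a test. Among the 43 gained windows, 26 had each CFAP20KO library above each WT library there, against 9.27% of all 9123 windows. In the limma fit across all windows, 5966 had enough signal to be tested, and 0.436% of them were called higher and 0.201% lower (Benjamini-Hochberg adjustment at 0.05). Of the silent windows, 637 of 3065 were tested, 13 were called higher and 3 lower. These calls depend on the model: with the replicate number as a block 25 silent windows were called higher and 18 lower, with block and centring 32 and 48, and with the run as a term 26 and 84. The balance of higher and lower calls thus turned between models, and no direction is read from it.

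The same fit for the first 3 kb tested 4768 windows, of which 0.210% were called higher in CFAP20KO (10 windows) and 0.0839% lower (4 windows). Only 17 of the 3065 silent windows had enough signal to be tested, and 8 were called higher, the same 8 described above. WT zeros chose these windows, so nothing is read from that count. Leaving out 1 library left 2 to 8 calls in all, and 786 windows were called once the run entered the model. With 3 libraries a group, the number of calls thus depends strongly on the model.

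Rescue levels were set against the means of the other groups. On the log2 scale of signal plus pseudocount it lay nearer to the knockout mean than to the WT mean in 7 of the 8 strong windows, with uc060wmy.1 as the exception. Over all 43 gained windows it was nearer to the knockout in 20 and nearer to WT, which was at 0, in 23. Over all 47 windows silent in CFAP20KO with signal in all 3 WT libraries, the rescue was nearer to the knockout, which was at 0, in 32. It was nearer to WT in 15 of them, and nearer to the knockout in all 3 strong ones. Of the 4768 windows tested in the first 3 kb, 14 were called, and the rescue was nearer to the knockout in 13. The share over all 4768 windows was not computed, so the counts given here have no background. These 14 are not a separate set, since they include the 8 strong windows as well as uc002qpg.4 and uc002mss.4 of the 3. The others called were uc003ewj.4, uc033exi.2, uc009yfk.4 and uc002nqd.2, and the rescue was nearer to the knockout in each. Set against the single knockout libraries, it was above the highest in 3 of the 8, within their range in 2 and below the lowest in 3. The rescue did not enter the choice of windows or the fit. With 1 rescue library there is no spread and no test. The rescue shares a run with WT replicate 2. Zeros in that library helped to choose the 8 windows, so they say nothing about the run.

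Among the 35 weaker gained windows, 20 (57.1%) had rescue signal and 15 were at 0. Rescue signal was more frequent where more knockout libraries had signal. It was present in 188 of 2574 windows (7.30%) with no knockout signal, in 81 of 350 (23.1%) with 1 library, in 33 of 92 (35.9%) with 2 and in 28 of 43 (65.1%) with 3. These shares have no WT library to set them against, since WT chose the windows. Over all 43 gained windows, rescue values were above the highest knockout library in 10, within the knockout range in 6, above 0 but below it in 12, and at 0 in 15.

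Other gained windows near the top were uc061zam.1, with 0.184, 0.0853 and 0.096 in CFAP20KO and 0.0333 in the rescue, and uc002yvv.4, with 0.0787, 0.096 and 0.072 and the rescue at 0. In uc057wzd.1 CFAP20KO replicate 1 stood apart, with 0.682 against 0.0533 and 0.276, and the rescue was at 0.14. Signal near the start was common here too: 15 of the 43 had WT signal within the 3 kb before it and 32 had it from 3 to 20 kb after it.

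Gained windows that could be placed numbered 11 of 43, and all are named here because they could be placed, 7 of them through origins outside the authors' list. Apart from ZSCAN18, the highest was SERPING1, the plasma inhibitor of complement C1 (chromosome 11, start 57597387, plus strand). It held 0.288, 0.181 and 0.18 in CFAP20KO and 0.0933 in the rescue. MEOX1, a homeobox gene of somite development (chromosome 17, start 43661922, minus strand), held 0.315, 0.096 and 0.048 with 0.0333 in the rescue. BMP3, a secreted ligand of the bone morphogenetic protein family (chromosome 4, start 81030708, plus strand), held 0.105, 0.128 and 0.048 with 0.287 in the rescue. In SERPING1 and MEOX1 the rescue was below the knockout libraries, and in BMP3 it was above them.

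Lower values were seen at CLEC4F, a C-type lectin gene (chromosome 2, start 70820599, minus strand), with 0.21, 0.032 and 0.024 in CFAP20KO and 0.0467 in the rescue. The others were ASTL, the protease released by the fertilised egg (chromosome 2, start 96138502), OLAH, a hydrolase that ends fatty acid synthesis at medium chain length (chromosome 10, start 15043927), and DUSP26, a phosphatase gene (chromosome 8). Their knockout values ran from 0.012 to 0.157, a few steps of the scale, and the rescue was at 0 in all 3. The noncoding RNAs were LINC01563 (chromosome 17, start 21075502), PICSAR (chromosome 21, start 45004727) and ENSG00000239628 (chromosome 3, start 170345678), with knockout values from 0.024 to 0.0787 and the rescue at 0. In these 6 windows WT and rescue were both at 0. None of the 11 genes had an intron in the splice table.

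The 3 silent windows with the highest rescue signal and no knockout signal reached 0.413 (uc004fbv.4), 0.353 and 0.287. WT and all knockout libraries were at 0 there. At the second, uc064bnd.1, the rescue also held 0.433 in the 3 kb before the start and 0.849 from 3 to 20 kb, where no other library was above 0.0106.

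Windows that went the other way numbered 3 at a level of 0.3 in each library, against 8 gained. At a level of 1 there were 2 of each kind. The strongest lost window by its lowest WT library, uc002qpg.4, held 7.26, 3.10 and 6.02 in WT (mean 5.46 ± 2.14, SD, n = 3). It was at 0 in all 3 knockout libraries and in the rescue. Its 3 to 20 kb held 4.23, 3.01 and 3.69 in WT, 1.66, 0.597 and 0.64 in the knockout and 1.07 in the rescue, so reading there was lower but present. A window placed at CUL4B, a scaffold of ubiquitin ligases (chromosome X, start 120575829, minus strand), held 1.60, 1.13 and 15.1 in WT, 0 in the knockout and 0.02 in the rescue. WT replicate 3 was far above the other 2 there, and from 3 to 20 kb the knockout values of 2.11, 4.64 and 4.33 overlapped those of WT replicates 1 and 2 (4.11 and 4.41). The third window, uc002mss.4, held 0.40, 0.484 and 0.361 in WT, 0 in the knockout and 0.00667 in the rescue.

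Of the 47 windows that lost signal, 25 (53.2%) had rescue signal, and 7 could be placed. Besides CUL4B these were FGD2, an exchange factor for Cdc42 (chromosome 6), MEPE, a bone and tooth matrix protein (chromosome 4), and the noncoding RNAs LINC02017, LINC02140, NCRNA00250 and ENSG00000228561. Apart from CUL4B, their WT values ran from 0.00978 to 0.14. Signal in 1 bin of 1 step is 0.02, 0.00489 and 0.0124 in WT replicates 1 to 3. Loss of signal at these 6 thus rests on weak signal, in part only a few steps. LINC02017, at 0.06, 0.103 and 0.137, held more than a few steps in WT replicates 2 and 3.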

How the data were processed

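Nascent RNA was sequenced in 3 WT, 3 CFAP20KO and 1 rescue library of RPE1 cells. The deposited signal is coverage in 200-bp bins over 100 kb to each side of a start, scaled per library by the authors, and the labels do not name the reference of the scaling. The submitters' processing notes name hg38, the aligner STAR 2.7.7a, SAMtools 1.11, HOMER 4.8.2 and R 4.0.5, besides Trim Galore 0.6.5 and FastQC 0.11.9 for trimming and quality. In every library each value was a multiple of a single step (tolerance 0.001), so windows were compared as signal and no count model was used. Values below 1e-06 were taken as 0. The deposited splice table gives a splice index as a fraction per intron, and was used only for the presence of genes (2979 genes, 6709 introns). The authors' origin list gives a distance in bp, kept as a score, and coordinates.

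The members and gene lists were chosen with earlier results of these data known. Named windows are the 12 gained windows with the highest lowest-of-3 signal, and 3 each by rescue value, rescue signal alone, WT signal downstream, WT signal before the start, and for those silent in CFAP20KO. Genes named because they could be placed fall outside this rule. WT and CFAP20KO were compared over all windows with limma 3.58.1 (R 4.3.3) on log2(mean signal + pseudocount). As pseudocount served the value below which 10% of the values above 0 lie (0.0498 for the first 3 kb, 0.00847 for 3 to 20 kb), windows with a lower mean were left out, and p-values were adjusted by Benjamini-Hochberg. No test was made on the members, since WT chose them. Same-numbered WT and CFAP20KO libraries deviated from their group means with correlations of 0.593, 0.329 and 0.057 and were not taken as pairs. Windows were placed on hg38 by correlating bin-to-bin changes of log2 steps in 6 libraries (at least 0.6, and 0.5 with extreme values clipped), over at least 100 differing bins, and were named from GENCODE starts within 300 bp. Promoter sequences are from RefSeq. Figures and counts were made with Python 3.11.15.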

Additional observations from a re-analysis of the deposited data

How the results depend on the processing

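Of 78 alternative values, 43 kept their direction and stayed close to the reported one. The difference in windows at 0 (1.19 percentage points, CFAP20KO minus WT) turned to -0.0731 with a common floor for all libraries, to -0.163 without WT replicate 2 and to -0.322 without CFAP20KO replicate 1, in a leave-one-out range of -0.322 to 2.57. With at least 5 bins in each library, 9 windows gained signal, 9 of them with rescue signal, and 5 lost it. Leaving out 1 library gave 3216 to 3511 silent windows, 51 to 97 gained, 32 to 51 gained with rescue signal (51 without WT replicate 2, 47 without CFAP20KO replicate 1) and 66 to 110 lost (110, 73 and 99 without WT replicates 1, 2 and 3, and 77 and 73 without CFAP20KO replicates 2 and 3).

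In the first 3 kb, limma called 14 windows. It called 8 with a mean of at least 4 pseudocounts, 28 over the first 5 kb, 30 with libraries centred (18 higher, 12 lower) and 786 with the run as a covariate (118 higher, 668 lower). Without 1 library it called 2 to 8: 2, 7 and 5 without WT replicates 1, 2 and 3, and 8, 2 and 2 without CFAP20KO replicates 1, 2 and 3. From 3 to 20 kb it called 38, 50 with libraries centred (27 higher, 23 lower), 1034 with the run covariate (571 higher, 463 lower), and 13 to 46 without 1 library (13 and 17 without WT replicates 1 and 2, 21 and 24 without CFAP20KO replicates 2 and 3). With the replicate number as a block it called 30 in the first 3 kb and 310 from 3 to 20 kb, and with the block and centring 328 and 540. Replicates 1 and replicates 3 of WT and CFAP20KO each share a run and replicates 2 do not, so the block is not a pairing by run, and no call is read as weaker from it. The cause of these shifts was not tested. Signal under 1 step cannot be seen, which limits the shallowest libraries most.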
